A study of Mus musculus with 24 samples.

Results

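The genes of cholesterol synthesis, of cholesterol uptake and transport, and of their control by the transcription factor SREBP2 were followed over 24 arrays of mouse primary hepatocytes. The list held 30 genes, taken by symbol from the platform's table of probe sets and genes: 8 of early synthesis (acetyl-CoA to squalene), 10 of late synthesis (squalene to cholesterol), 4 of SREBP2 control, and 8 of uptake, transport and esterification. A probe set of their own measured 26 of them, among 22180 genes tested. Idi1 shares its probe set with other symbols and was not tested as a gene, and levels of Acat2, Soat1 and Soat2 are not analysed here. Idi1, Acat2 and Soat1 do enter the promoter counts below. The early list then had 6 measured genes, the late list 10, the control list 4 and the last list 6.

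Hepatocytes of male C57Bl6J mice were infected with an adenovirus that carried a hairpin RNA against FOXA2 (shFOXA2) or against lacZ (shlacZ), a bacterial gene, at a multiplicity of infection of 5. They were then kept for 4 h with 100 nM glucagon or 1 nM insulin, each combined with GW4064 at 2 µM, which activates FXR, a nuclear receptor for bile acids, or with its solvent DMSO. All cultures had 100 nM dexamethasone, a glucocorticoid, in their medium. Of the 8 groups, 4 had shFOXA2 (glucagon with GW4064, glucagon with DMSO, insulin with GW4064, insulin with DMSO) and 4 had shlacZ with the same treatments. Each group had 3 arrays, 1 for each of 3 experiments, and the design text states that an experiment used cells pooled from 3 mice and that technical replicates were pooled within a sample. Every culture had 1 of the 2 hormones, so the arrays give only the difference between glucagon and insulin, whichever hormone moved a gene.

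As background, hepatocytes make cholesterol from acetyl-CoA through mevalonate, farnesyl diphosphate, squalene and lanosterol. SREBP2 is held in the endoplasmic reticulum by the INSIG proteins when sterols are plentiful; when sterols fall, SCAP carries it to the Golgi, where it is cut, and the released part switches on nearly every enzyme gene of the pathway and INSIG1 itself. Insulin is known to favour and glucagon to restrain hepatic sterol and fatty acid synthesis, in part through enzyme phosphorylation, which arrays do not see.

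Promoter sequence was looked at first, because SREBP2 acts with helper factors at short sites near the start of its target genes. RefSeq windows (build GRCm38.p6) ran from 250 bases before to 50 bases after each listed start, and 23 of the 30 genes had one. On both strands, the sterol regulatory element TCACNCCAC occurred in 1 of these 23 genes, Hmgcs1, and in 1.44% of all 27025 genes with a window. The CCAAT box (CCAAT), which the factor NF-Y binds, occurred in 21 of 23 genes and in 41.1% of all genes. The GC box (GGGCGG), which Sp1 binds, occurred in 20 of 23 genes and in 38.2% of all genes. The cAMP response element TGACGTCA, bound by CREB downstream of glucagon, occurred in 0 of 23 genes and 2.03% of all genes. Its shorter form TGACG, which every TGACGTCA also contains, occurred in 11 of 23 genes and 23.05% of all genes. A gene with several windows counts once where any of them has a match, and the matches are letters only. Hmgcs1 is shown as the member with the sterol regulatory element. Insig1 and Msmo1 are shown as members with opposite hormone differences, chosen after their values were seen. Their windows are chr13:119690101-119690400 on the plus strand for Hmgcs1, chr5:28071162-28071461 on the plus strand for Insig1 and chr8:64733529-64733828 on the minus strand for Msmo1. Capitals mark matches to any of these motifs on either strand.
Hmgcs1: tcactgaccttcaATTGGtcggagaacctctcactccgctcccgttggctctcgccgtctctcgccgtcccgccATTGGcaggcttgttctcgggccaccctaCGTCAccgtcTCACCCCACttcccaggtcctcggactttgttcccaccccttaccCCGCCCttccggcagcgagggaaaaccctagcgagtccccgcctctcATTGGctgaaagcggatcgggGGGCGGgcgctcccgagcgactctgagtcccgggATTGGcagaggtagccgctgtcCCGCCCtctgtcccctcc
Insig1: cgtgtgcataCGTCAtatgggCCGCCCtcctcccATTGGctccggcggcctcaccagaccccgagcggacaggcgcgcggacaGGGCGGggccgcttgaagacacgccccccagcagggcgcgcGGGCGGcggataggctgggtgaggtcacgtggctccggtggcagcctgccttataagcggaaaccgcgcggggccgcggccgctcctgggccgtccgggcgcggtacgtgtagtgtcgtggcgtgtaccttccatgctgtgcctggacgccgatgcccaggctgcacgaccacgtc
Msmo1: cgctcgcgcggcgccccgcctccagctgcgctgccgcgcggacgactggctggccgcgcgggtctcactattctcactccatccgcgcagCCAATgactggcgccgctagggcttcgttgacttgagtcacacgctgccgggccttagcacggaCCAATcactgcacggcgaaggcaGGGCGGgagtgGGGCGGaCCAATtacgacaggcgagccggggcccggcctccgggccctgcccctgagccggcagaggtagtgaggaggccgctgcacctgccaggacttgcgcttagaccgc
In Hmgcs1 the TCACNCCAC match began 137 bases before the start, among 4 CCAAT and 3 GGGCGG matches. Insig1 held 1 CCAAT and 3 GGGCGG matches, and Msmo1 held 3 CCAAT and 2 GGGCGG matches all before its start. The TGACG form had 1 match in Hmgcs1, 1 in Insig1 and 0 in Msmo1.

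Levels are the log2 values that the authors deposited. Differences are on the same scale and come with a standard error (SE). A gene is called where limma's Benjamini-Hochberg adjusted p over all genes tested is under 0.05. Counts at an unadjusted p under 0.05 come without the share of all genes at that threshold and are not read as differences. The 24 array medians lay between 3.21 and 3.28, levels near them lie by the arrays' floor, and replicates correlated at 0.986 to 0.994 across genes. The hepatocyte markers (6 of 6 measured) had a median level of 10.6, whereas the marker lists of macrophages, stellate cells, cholangiocytes and lymphocytes had medians from 2.53 to 3.92 and that of endothelial cells 4.78. Foxa2, the hairpin's target, ranged over 6.79 to 7.21 in shFOXA2 and 7.11 to 7.72 in shlacZ arrays with glucagon, and over 5.54 to 6.08 in shFOXA2 and 6.07 to 6.30 in shlacZ arrays with insulin. It was lower with shFOXA2 in 12 of 12 pairs of arrays, by an averaged difference of -0.43 (SE 0.07, limma adjusted p = 0.0613, or 0.0194 with the experiment as a block and 0.341 with 1 value per experiment). Over 34 alternatives it passed 0.05 in 10, with adjusted p from 0.00805 to 0.99983. Pck1, a gluconeogenic gene that glucagon induces, was higher under glucagon in 12 of 12 pairs, by 6.04 (SE 0.30, limma adjusted p = 8.58e-12). In bulk samples such as these, fewer cells of a type and less RNA per cell cannot be told apart.

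Cholesterol genes were on balance higher under glucagon than under insulin, led by Pmvk, Insig1, Lss, Stard4 and Ebp, and 2 late enzymes ran the other way. Averaged over the 4 conditions of hairpin and drug (12 against 12 arrays), 10 of 26 members were called higher and 2 lower under glucagon. Of all genes, 16.2% were called, 7.38% higher and 8.85% lower. Among the 9041 genes with a mean level of at least 4, which take in 25 of the 26 members, 34.4% were called, 14.7% higher and 19.7% lower. Set beside these shares, higher calls were more frequent among the members and lower calls were not. The genes were listed with earlier results of these data known, so this comparison describes the list and does not test it. The median difference was 0.28 over the 26 members and 0.01 over all genes, and by list it was 0.28 in early synthesis, 0.32 in late synthesis, 0.34 in SREBP2 control and 0.07 in uptake, transport and esterification. In 14 of 26 members all 12 pairs of arrays with the same hairpin, drug and experiment had the same sign, 12 of them higher and 2 lower under glucagon. That was so of 10.3% of all genes and of 23.7% of those with a mean level of at least 4. With the experiment as a block, 20 members were called, 18 higher and 2 lower, beside 24.6% of all genes. With 1 value per experiment, the averaged hormone difference, 17 members were called, beside 16.2% of all genes. Overlap between glucagon and insulin arrays is described below member by member. It was not counted over all genes, so a lack of overlap does not set the members apart.

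**Figure D1:**
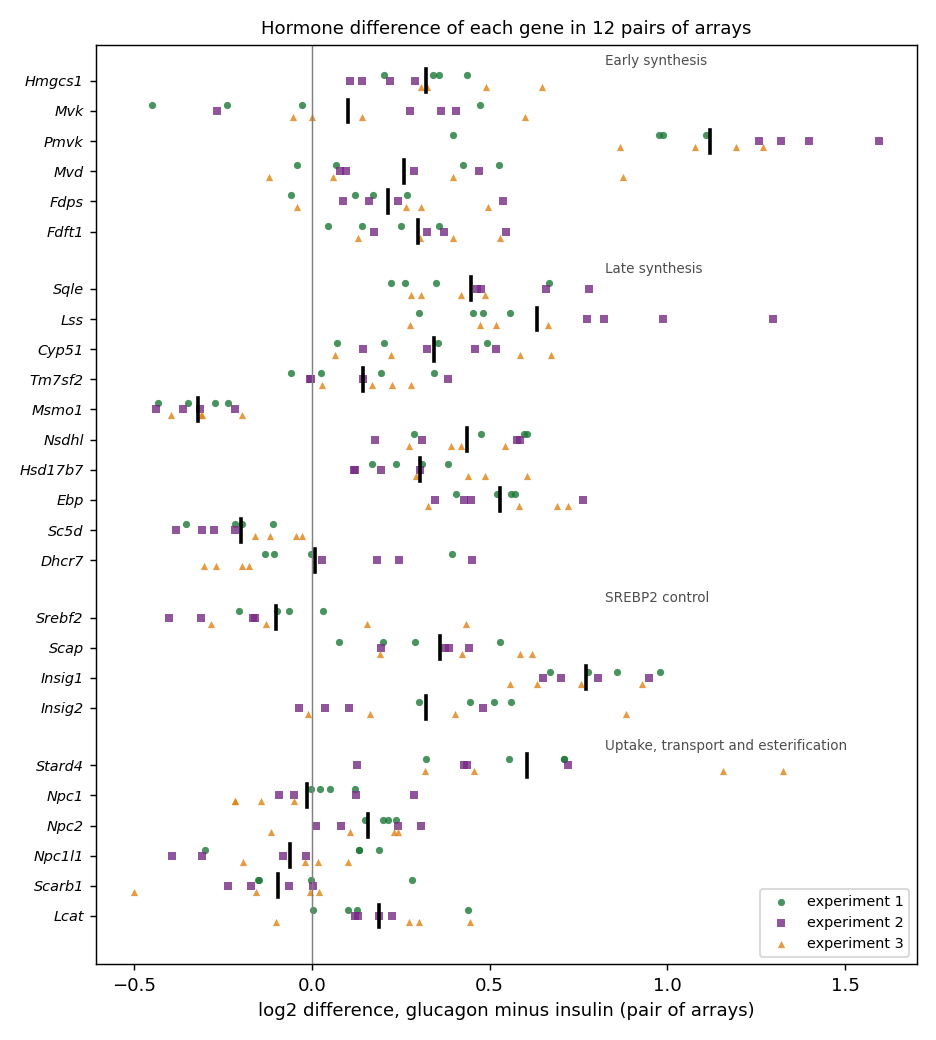
Log2 difference of glucagon minus insulin (horizontal axis) for each of the 26 measured genes (vertical axis, by list), with 1 point for each of the 12 pairs of arrays that share hairpin, drug and experiment, and a bar at their mean. Pmvk lay farthest to the right with 0.40 to 1.60, the points of Msmo1 (-0.44 to -0.20) and Sc5d (-0.38 to -0.03) were all below 0, and those of Mvk, Mvd, Fdps, Tm7sf2, Dhcr7, Srebf2, Insig2, Npc1, Npc2, Npc1l1, Scarb1 and Lcat lay on both sides of 0.

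Among the 6 measured genes of early synthesis, 3 were higher under glucagon, 0 lower and 3 not called. Pmvk, phosphomevalonate kinase, had a lowest, median and highest level of 6.11, 6.65 and 6.92 in the glucagon arrays, against 5.09, 5.60 and 5.84 in the insulin arrays. Every glucagon array lay above every insulin array. Its averaged difference of 1.12 (SE 0.10, limma adjusted p = 3.46e-08) is a 2.17-fold higher value under glucagon. Hmgcs1, the HMG-CoA synthase that makes the precursor of mevalonate, had levels of 8.33, 8.85 and 9.09 (lowest, median, highest) under glucagon, against 8.11, 8.44 and 8.74 under insulin. These ranges overlapped over all arrays but in none of the 3 experiments taken alone. Its difference was 0.32 (SE 0.11, limma adjusted p = 0.0451, with the block 4.76e-06), and it lost its call in 16 of 24 fits that left out 1 array (adjusted p up to 0.0914). Hmgcs1 also lost its call without experiment 1 (limma adjusted p = 0.145) or 3 (0.379). Mvd, the decarboxylase that makes isopentenyl diphosphate, was low on these arrays, with 3.84, 4.29 and 4.76 under glucagon against 3.62, 4.11 and 4.39 under insulin. The groups overlapped, and glucagon was the higher side in 10 of 12 pairs. Its difference was 0.26 (SE 0.08, limma adjusted p = 0.0294), not called in 12 of 24 fits without 1 array (adjusted p up to 0.0600). Nor was Mvd called without experiment 2 (limma adjusted p = 0.178) or 3 (0.137). Fdft1, squalene synthase, was the higher under glucagon in 12 of 12 pairs, with a difference of 0.30 (SE 0.12, limma adjusted p = 0.109) that was not called here but was with the block (3.03e-05), with 1 value per experiment (0.0138) and without experiment 1 (0.00640). Fdps, farnesyl diphosphate synthase, had a difference of 0.21 (SE 0.13) with an adjusted p of 0.332, or 0.00318 with the block. Mvk, mevalonate kinase, went either way, with 7 of 12 pairs higher and a difference of 0.10 (SE 0.11).

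Of the 10 genes of late synthesis, 3 were higher under glucagon, 2 lower and 5 not called. Sqle, squalene epoxidase, had 7.93, 8.22 and 8.42 (lowest, median, highest) under glucagon, against 7.46, 7.84 and 8.02 under insulin. The ranges overlapped at their ends, and within each experiment they did not. The difference was 0.45 (SE 0.08, limma adjusted p = 3.25e-04). Lss, which closes the sterol ring to lanosterol, had 7.09, 7.55 and 7.88 under glucagon against 5.95, 7.14 and 7.26 under insulin. The groups overlapped over all arrays but in no experiment, and the low insulin values came from experiment 2, where the mean difference was 0.97, against 0.45 in experiment 1 and 0.48 in experiment 3. The averaged difference was 0.63 (SE 0.16, limma adjusted p = 0.00951), and the call was lost without experiment 1 (0.0660) or 3 (0.0586). Ebp, the sterol isomerase, had 6.79, 7.13 and 7.39 under glucagon against 6.08, 6.67 and 6.78 under insulin. As with Pmvk, no insulin array reached the lowest glucagon array. Its difference was 0.53 (SE 0.08, limma adjusted p = 9.75e-05), a 1.44-fold higher value under glucagon.

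Msmo1, an oxidase that takes part in the removal of methyl groups from the sterol, had 8.33, 8.61 and 8.74 under glucagon, against 8.68, 8.93 and 9.09 under insulin. The groups overlapped over all arrays but in no experiment. Msmo1 was lower under glucagon in 12 of 12 pairs and in each experiment by nearly the same amount (-0.32, -0.33 and -0.30). The difference of -0.32 (SE 0.06, limma adjusted p = 8.44e-04) lost its call without experiment 1 (0.0672). Sc5d, the sterol desaturase, had 8.67, 8.82 and 9.01 under glucagon, against 8.88, 9.02 and 9.25 under insulin. The groups overlapped widely, although all 12 pairs were lower under glucagon, by -0.38 to -0.03. Its difference of -0.20 (SE 0.05, limma adjusted p = 0.00889) lost its call without experiment 2 (0.274) and with 1 value per experiment (0.0663).

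The enzymes that act with Msmo1 on the same methyl groups had positive differences, which were not called without the block and were called with it. Nsdhl, the sterol dehydrogenase of that complex, had 7.12, 7.88 and 8.56 under glucagon against 6.79, 7.43 and 8.04 under insulin. Hsd17b7, its ketoreductase, had 6.51, 7.19 and 7.44 under glucagon against 6.38, 6.79 and 7.08 under insulin. For either gene glucagon was the higher side in 12 of 12 pairs, and no experiment overlapped within itself. The differences of 0.44 (SE 0.20) for Nsdhl and 0.31 (SE 0.14) for Hsd17b7 had limma adjusted p of 0.170 and 0.178, or 2.89e-06 and 1.78e-04 with the block and 0.00244 and 0.0240 with 1 value per experiment. Cyp51, the lanosterol demethylase, was likewise higher in 12 of 12 pairs (0.34, SE 0.18) with an adjusted p of 0.259, or 7.32e-05 with the block. Tm7sf2, a sterol reductase, had 0.14 (SE 0.06, adjusted p = 0.131, with the block 0.00879, with 1 value per experiment 0.0965). Dhcr7, which reduces the last double bond of one branch, differed by 0.01 (SE 0.11), with a mean of 0.23 in experiment 2 and -0.24 in experiment 3.

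Of the 4 SREBP2 control genes, Insig1 and Scap were higher under glucagon and the gene of SREBP2 itself was not called. Insig1, an anchor of the SCAP and SREBP complex, had 7.47, 8.63 and 8.85 under glucagon, against 6.67, 7.82 and 8.01 under insulin. Over all arrays these ranges overlapped, and in none of the 3 experiments did they. The 8 arrays of experiment 2, at 7.67 or less, lay below all 8 of experiment 1 (7.87 to 8.85) and all 8 of experiment 3. Within experiments 1, 2 and 3 the hormone difference was 0.82, 0.78 and 0.72. The averaged 0.77 (SE 0.24) had a limma adjusted p of 0.0321 with no block and 1.35e-09 with it, and 11 of 24 fits without 1 array did not call it (adjusted p up to 0.0665). The call of Insig1 was also lost without experiment 1 (limma adjusted p = 0.204) or 3 (0.163). Scap, the sterol-sensing escort, had 8.16, 8.41 and 8.66 under glucagon against 7.79, 8.08 and 8.23 under insulin. The groups overlapped over all arrays but in no experiment. Glucagon was the higher side in 12 of 12 pairs, by 0.36 on average (SE 0.07, limma adjusted p = 3.94e-04). Insig2, the second anchor, whose liver transcript insulin is known to lower, differed by 0.32 (SE 0.13, adjusted p = 0.114, with the block 0.00124), with 10 of 12 pairs higher. Srebf2, which encodes SREBP2, had 6.86, 7.18 and 7.42 under glucagon against 6.82, 7.30 and 7.56 under insulin, groups that overlapped almost wholly (-0.10, SE 0.08, adjusted p = 0.522).

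Among the 6 measured genes of uptake, transport and esterification, 2 were higher under glucagon, 0 lower and 4 not called. Stard4, a cytosolic sterol carrier and SREBP2 target, had 4.56, 5.08 and 5.58 under glucagon, against 4.14, 4.42 and 4.78 under insulin. The groups overlapped, with experiment 3 holding the highest glucagon arrays. All 12 pairs were higher under glucagon, by 0.13 to 1.33. Its difference was 0.61 (SE 0.11, limma adjusted p = 5.64e-04). Npc2, a carrier that hands cholesterol on inside lysosomes, had 7.56, 7.89 and 8.07 under glucagon against 7.60, 7.69 and 7.84 under insulin. Its lowest array was a glucagon array, although 11 of 12 pairs were higher under glucagon. The difference of 0.16 (SE 0.05, limma adjusted p = 0.0325) lost its call in 12 of 24 fits without 1 array (adjusted p up to 0.0657). Npc2 was not called without experiment 1, 2 or 3 either (limma adjusted p = 0.244, 0.196 and 0.0563). Lcat, the secreted enzyme that esterifies plasma cholesterol, was the higher under glucagon in 11 of 12 pairs (0.19, SE 0.15), with a limma adjusted p of 0.499, or 0.00610 with the block. Npc1, the lysosomal cholesterol exporter, and Scarb1, the receptor for high-density lipoprotein, differed by -0.01 (SE 0.10) and -0.09 (SE 0.08), neither called. Npc1l1, a sterol importer chiefly of the intestine, stayed by the floor at 2.37 to 2.95 under glucagon and 2.57 to 3.03 under insulin.

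Markers moved with the hormone as well. Of the hepatocyte markers 3 of 6 were called higher under glucagon: Tat by 2.99, Hnf4a by 0.97 and Ttr by 0.27. Alb, Apoa1 and Serpina1a differed by 0.03, 0.11 and 0.02 and were not called. The mean level of the 6 was 9.84 to 10.3 over glucagon arrays, against 8.97 to 9.72 over insulin arrays. Of the stellate markers 1 of 5 was called higher (mean level 3.80 to 4.13 under glucagon, 3.60 to 3.85 under insulin). Of the cholangiocyte markers 1 of 4 was called lower (4.09 to 4.44 under glucagon, 4.39 to 5.10 under insulin). No macrophage, endothelial or lymphocyte marker was called in limma, and at an unadjusted p under 0.05 the number was also 0, while the block called 1 macrophage marker higher. The part of these shifts in the members' differences was not tested.

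Within single conditions, 3 against 3 arrays, Pmvk was called in each of the 4. In cells with shFOXA2 and GW4064 its levels in experiments 1, 2 and 3 were 6.11, 6.78 and 6.92 under glucagon, against 5.71, 5.19 and 5.84 under insulin (difference 1.02, SE 0.19, limma adjusted p = 0.00306). With shFOXA2 and DMSO they were 6.60, 6.72 and 6.92 under glucagon, against 5.63, 5.46 and 5.72 under insulin (1.14, adjusted p = 8.87e-04). With shlacZ and GW4064 they were 6.65, 6.49 and 6.46 under glucagon, against 5.54, 5.09 and 5.60 under insulin (1.12, adjusted p = 0.00147). In cells with shlacZ and DMSO they were 6.65, 6.59 and 6.86 under glucagon, against 5.66, 5.27 and 5.60 under insulin (1.19, adjusted p = 6.03e-04). That the glucagon and insulin arrays did not overlap in any of these conditions follows from their separation over all 24 arrays. Without experiment 2 the calls of Pmvk with GW4064 were lost, with adjusted p of 0.166 with shFOXA2 and 0.0535 with shlacZ. Ebp was the other call, with shlacZ and GW4064, at 7.29, 6.84 and 7.02 under glucagon against 6.76, 6.08 and 6.44 under insulin (0.62, adjusted p = 0.0488). This call of Ebp held in 6 of 24 fits without 1 array and in 0 of 3 without an experiment, with an adjusted p of up to 0.282. The count was thus 1 member with shFOXA2 and GW4064 beside 3.49% of all genes, 1 with shFOXA2 and DMSO beside 4.79%, 2 with shlacZ and GW4064 beside 3.09%, and 1 with shlacZ and DMSO beside 4.68%. With the experiment as a block the counts in the same order of conditions were 12 beside 9.14%, 11 beside 11.3%, 11 beside 8.41% and 12 beside 11.2% of all genes. The block left the differences themselves as they were. Insig1 was at 0.77, 0.66, 0.85 and 0.81 in these conditions in that order, Sqle at 0.41, 0.36, 0.55 and 0.47, and Msmo1 at -0.37, -0.32, -0.22 and -0.37.

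**Figure D2:**
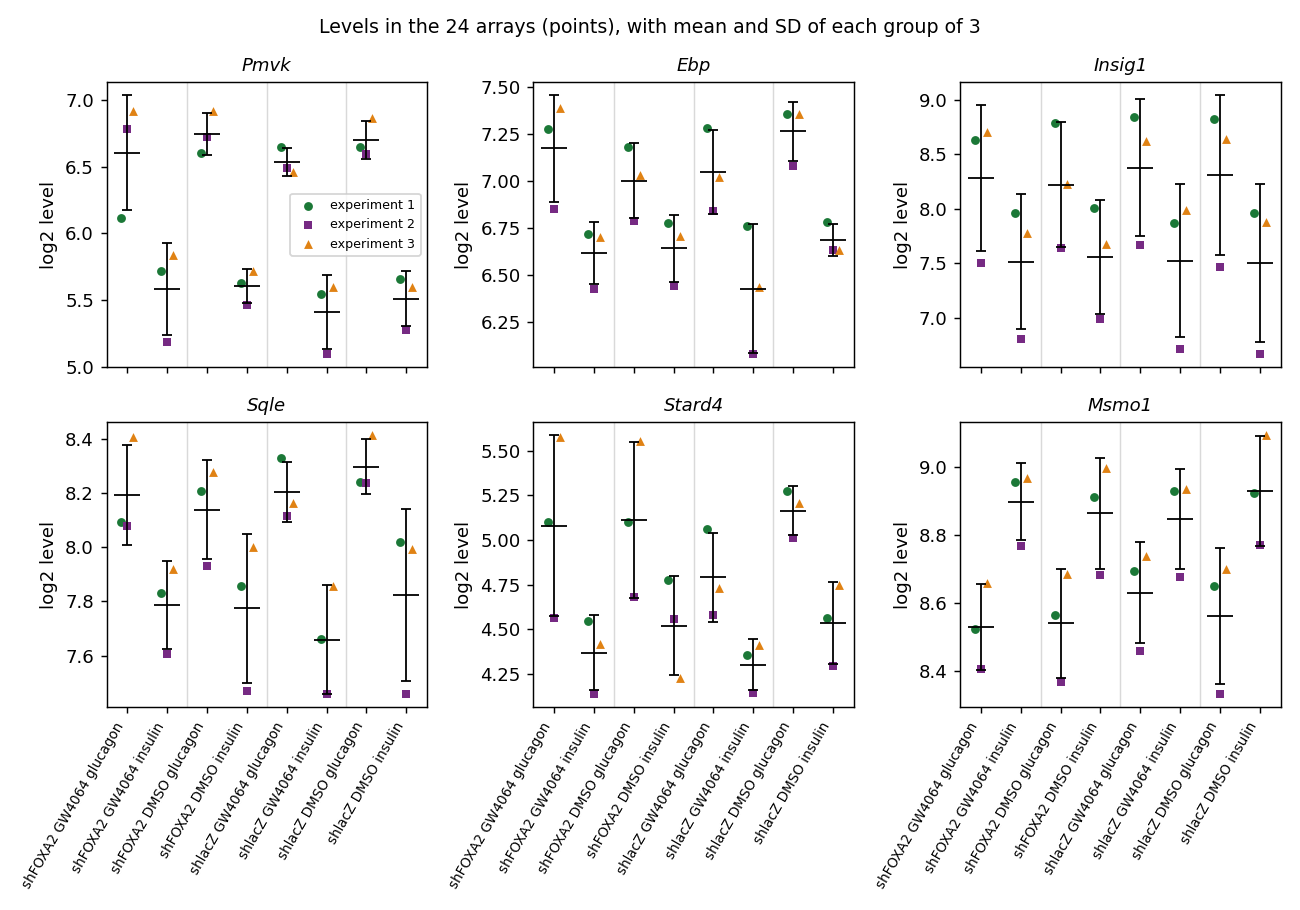
Log2 level (vertical axis) of Pmvk, Ebp, Insig1, Sqle, Stard4 and Msmo1 in the 8 groups (horizontal axis), with 1 point per array marked by experiment and the mean ± SD of the 3 arrays. In each condition of hairpin and drug the glucagon mean lay above the insulin mean for the first 5 genes and below it for Msmo1, and the Insig1 arrays of experiment 2 were the lowest of every group.

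GW4064 called no member in any comparison. Averaged over hormone and hairpin, GW4064 minus DMSO ran from -0.20 (Stard4) to 0.11 (Npc1l1), with a median of -0.003. In limma 0 of 26 members were called, beside 0.00902% of all genes, with 1 at an unadjusted p under 0.05 and 0 with the block. Stard4, the sterol carrier, was lower with GW4064 in 9 of 12 pairs, and its 95% interval of -0.44 to 0.04 took in 0. Npc1l1, the member at an unadjusted p under 0.05, had an interval of 0.01 to 0.22 at a level near the floor. Pmvk had an interval of -0.31 to 0.10, which lay below its hormone difference of 1.12, and Insig1 had the widest interval, -0.49 to 0.54. These intervals come from the fit without the block, so they include the spread of levels between experiments. The mean paired drug difference of Insig1 was -0.07, -0.02 and 0.17 in experiments 1, 2 and 3. Within the 4 combinations of hormone and hairpin 0 members were called, beside 0.000% of all genes in each and 0 with the block, and 0 to 1 passed an unadjusted p under 0.05.

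The FOXA2 hairpin called no member either. Averaged over hormone and drug, shFOXA2 minus shlacZ ran from -0.12 (Insig2) to 0.11 (Cyp51), with a median of 0.03. In limma 0 of 26 members were called, beside 0.00902% of all genes, with 0 at an unadjusted p under 0.05 and 0 with the block. The interval of Pmvk was -0.11 to 0.30 and that of Insig1 -0.55 to 0.48, again from the fit without the block. Paired within experiments 1, 2 and 3, the mean hairpin difference of Insig1 was -0.03, 0.11 and -0.18. Within the 4 combinations of hormone and drug 0 members were called, beside 0.000% of all genes in 3 of them and 0.00451% under insulin with DMSO and 0 with the block, and 0 to 1 passed an unadjusted p under 0.05. Foxa2 itself differed by -0.51 in experiment 1, -0.66 in experiment 2 and -0.12 in experiment 3, so the hairpin comparison is one of partial loss of the transcript, with the smallest difference in experiment 3. Leaving out any 1 experiment, experiment 3 included, also gave 0 members called for the averaged hairpin comparison.

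No interaction of hormone, drug and hairpin was called for any member. Hormone by drug ran from -0.09 (Pmvk) to 0.20 (Dhcr7), hormone by hairpin from -0.21 (Fdps) to 0.23 (Insig2), drug by hairpin from -0.11 (Npc1l1) to 0.32 (Lss), and the term of all 3 factors from -0.34 (Cyp51) to 0.95 (Mvd). For each of these 4 terms limma called 0 of 26 members, beside 0.000% of all genes. Mvd, at a low level, was the only member at an unadjusted p under 0.05 in any of them, and with the block the count was also 0.

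**Figure D3:**
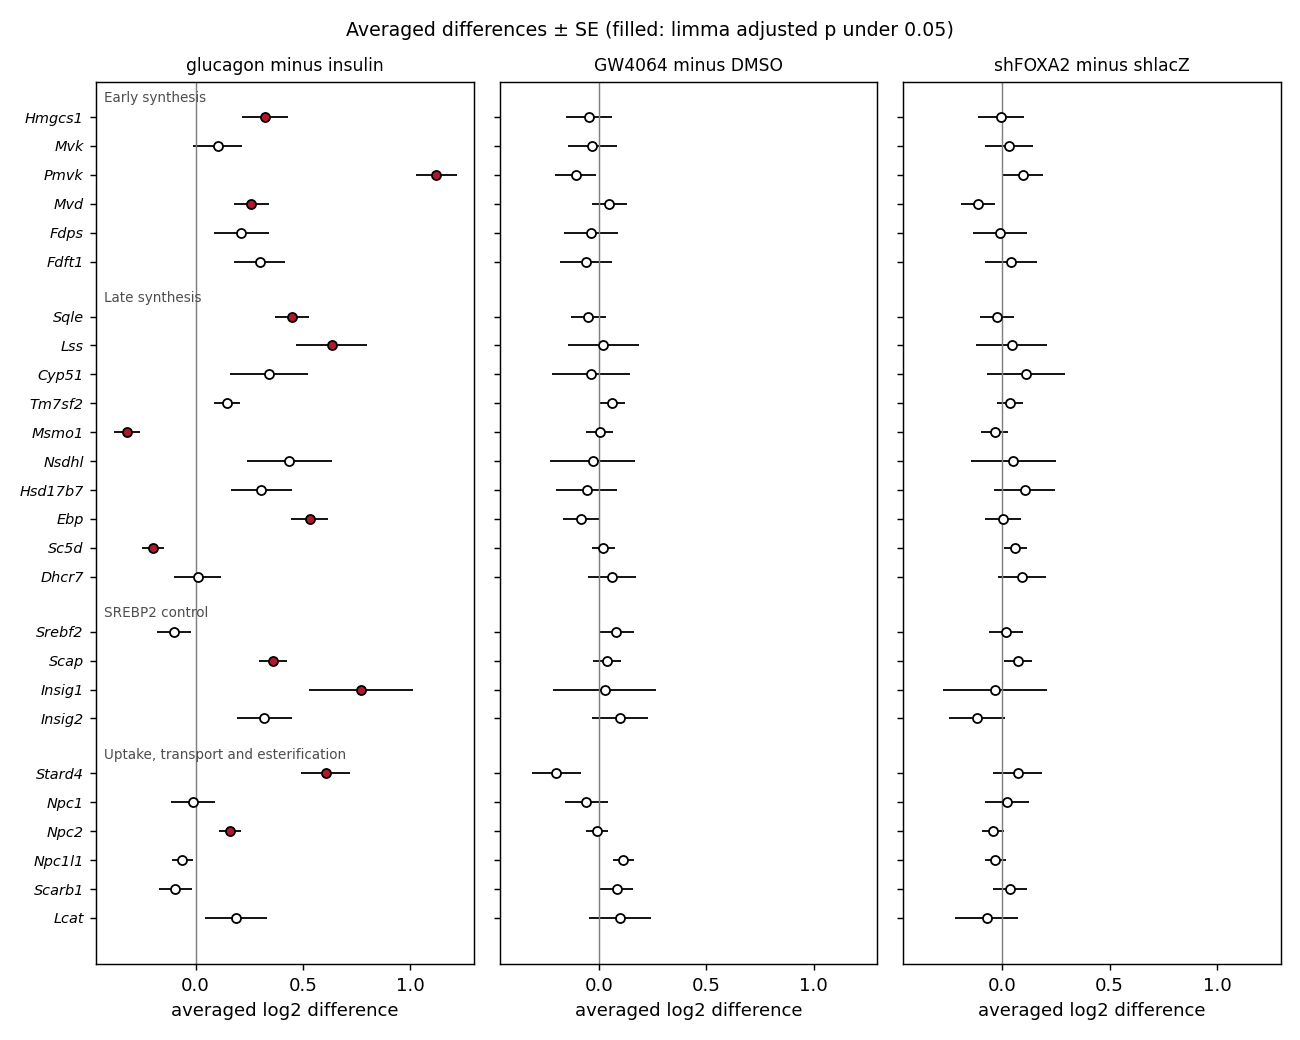
Averaged log2 difference ± SE (horizontal axis) of the 26 measured genes (vertical axis, by list) in 3 panels, glucagon minus insulin on the left, GW4064 minus DMSO in the middle and shFOXA2 minus shlacZ on the right, with filled points where limma's adjusted p was under 0.05. The hormone panel had 12 filled points and the other panels 0, where the differences lay between -0.20 and 0.11 and between -0.12 and 0.11.

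The members' levels also differed between the experiments. This comparison was added after the data were seen. A moderated F test of the experiment term called 23 of 26 members, beside 30.2% of all genes and 59.1% of genes with a mean level of at least 4. Of the 16 measured synthesis genes 15 were called, all but Pmvk (adjusted p = 0.0788). The highest mean of 8 arrays was in experiment 1 for 13 of the 16 and in experiment 3 for 3, and the lowest was in experiment 2 for 14 and in experiment 3 for 2. Nsdhl had means of 8.19, 7.15 and 7.65 in experiments 1, 2 and 3. For Lss they were 7.45, 6.72 and 7.39. Insig1 had 8.36, 7.18 and 8.19. Insig1 and Lss were thus low in experiment 2 and close together in experiments 1 and 3, whereas Nsdhl had 3 well separated means. The median range between experiments was 0.45 over the synthesis genes and 0.39 over the members, against 0.25 over genes with a mean level of at least 4. For 17 of 26 members this range was larger than the size of the averaged hormone difference. Neither this count nor those of the highest and lowest experiment were made over all genes, so they do not set the members apart. Npc1 ran otherwise, with its highest mean (9.90) in experiment 2. The endothelial markers also differed, with a mean level of 5.02, 4.16 and 4.46 in experiments 1, 2 and 3 and 4 of 5 called, and the hepatocyte markers had 9.91, 9.53 and 9.88 with 4 of 6 called. Their part in the members' differences was not tested.

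**Figure D4:**
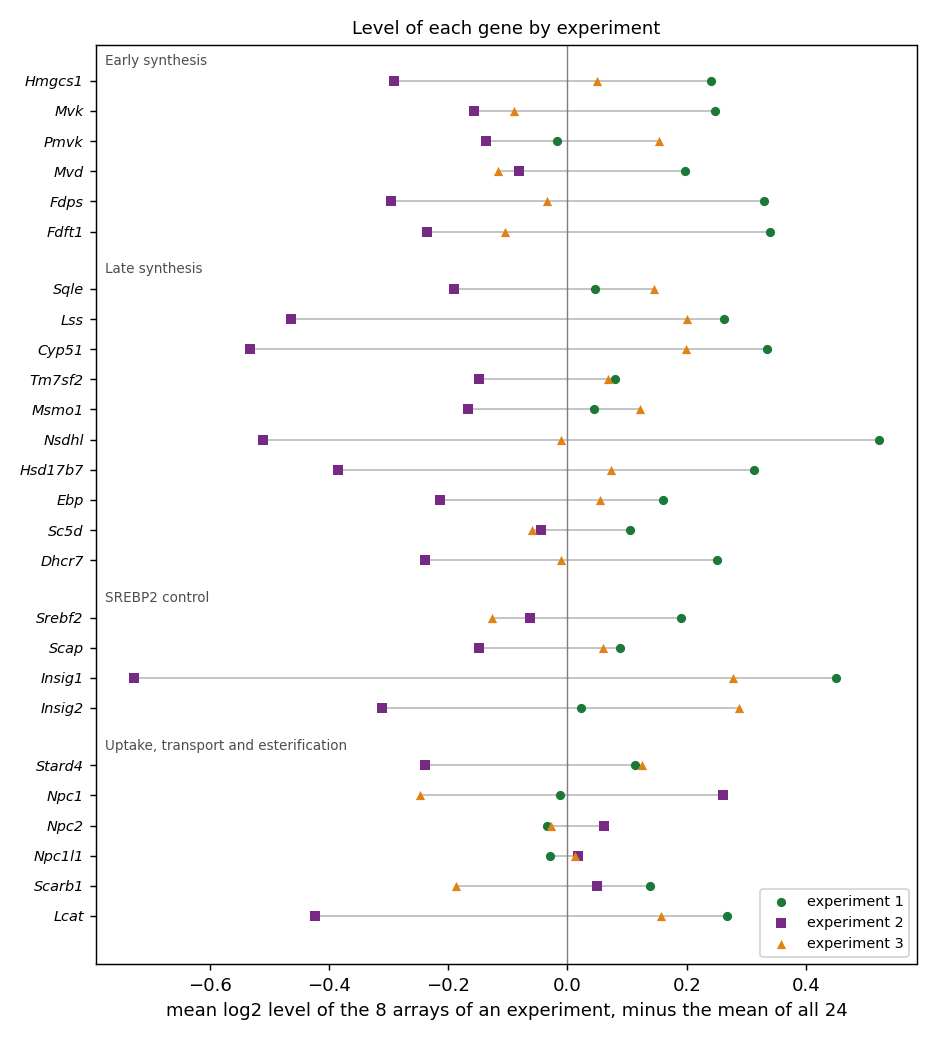
Mean log2 level of the 8 arrays of each experiment minus the mean of all 24 (horizontal axis) for the 26 measured genes (vertical axis, by list). Experiment 2 was the lowest for 19 of 26 genes and experiment 1 the highest for 18, counts that were not made over all genes. The widest ranges were those of Insig1 (1.18) and Nsdhl (1.03).

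Further genes of sterol handling, listed beside the members, showed no common direction. Of 42 listed genes 34 were measured, and 6 were called higher, 6 lower and 22 not under glucagon, with a median of 0.02. Of all genes 16.2% were called, and of those with a mean level of at least 4, 34.4%. In sterol efflux 3 of 5 genes were higher: Abca1, which loads cholesterol onto apolipoprotein, by 0.97 (SE 0.14, limma adjusted p = 3.50e-05), and Abcg5 and Abcg8, the partners of the canalicular sterol exporter, by 0.82 and 0.70 at low levels of 3.79 and 3.44, the call of Abcg8 being lost in 1 of 3 fits without an experiment (adjusted p up to 0.163). Among genes of SREBP processing and sterol-regulated degradation 2 were higher and 2 lower. Erlin1, a protein of the endoplasmic reticulum that takes part in that degradation, was lower by -1.31 (SE 0.07, limma adjusted p = 1.98e-11), and Rnf145, a ubiquitin ligase reported to act on SCAP, was higher by 0.36 (adjusted p = 0.00129). Aacs, which returns ketone bodies to lipid synthesis, was lower by -0.58 (adjusted p = 9.25e-05). Pggt1b, a subunit of the geranylgeranyl transferase, was lower by -0.47 (adjusted p = 7.68e-06). Gramd1b, a sterol transfer protein, was lower by -0.36 (adjusted p = 0.00536) at a level near the floor (2.73), and kept its call in 1 of 3 fits without an experiment (adjusted p up to 0.136). Srebf1, which encodes SREBP1, was not called (0.12, SE 0.07, adjusted p = 0.295). No gene of this set was called for GW4064 or for the hairpin in the averaged limma comparisons, with 1 and 3 at an unadjusted p under 0.05.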

How the data were processed

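The deposited values were log2 expression values of 41345 probe sets on 24 arrays (Affymetrix arrays, per the labels' protocols with 300 ng of RNA as input). GeneSpring was used by the authors per the series' design text, while normalization and background correction are not stated in those sources. The values themselves showed the log2 scale: they ran from 1.46 to 13.5. Probe sets with 1 symbol in the platform annotation were used, and that of the highest mean where a gene had several (Npc1 and Scap), which gave 22180 genes.

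Differences were fitted with limma 3.58.1 in R 4.3.3 (lmFit, eBayes) with 1 mean per group, all 24 arrays and 16 residual degrees of freedom, checked on simulated data first. In averaged comparisons the pairs of an experiment count as separate. Replicates of a group are from different experiments, so p-values of this fit measure the spread of levels between experiments. Arrays of 1 experiment are taken as independent. The replicate block takes out the shift that arrays of an experiment share. Only the fit of 1 value per experiment measures the spread of a difference between experiments. The number of arrays limits the precision: the median SE over genes was 0.13 within a condition and 0.063 averaged. The experiment numbers come from the labels and pair the arrays: deviations from group means correlated in all 84 same-experiment pairs (r = 0.374 to 0.698). A fit with the experiment as a replicate block left 14 degrees of freedom. Other alternatives were 1 value per experiment, median centring, quantile normalization, a minimum mean level of 4, the mean of probe sets, limma's trend and robust options, only the 2 groups compared, and leaving out each array or experiment. For between-experiment calls, 5 alternatives were added after seeing the data.

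All 30 listed genes were to be named; of further sterol genes, the 8 largest called differences, and Srebf1, chosen after its value was seen. The members and lists were chosen with earlier results of these data known. Promoters are RefSeq's, and figures were drawn with matplotlib 3.10.9.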

Additional observations from a re-analysis of the deposited data

How the results depend on the processing

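The count of members called for the averaged hormone difference was 12, and it was 20 with the experiment as a replicate block, 17 with 1 value per experiment, 9 with median centring and 10 with trend and robust options. Leaving out 1 experiment or array gave 7 to 14, with 7 without experiment 3, 8 without experiment 1 and 12 without experiment 2. Of all genes, 3600 were called with all arrays, 3610 without experiment 3, 2018 without experiment 1 and 2216 without experiment 2. The member count thus fell without experiment 3 while the count of all genes did not. Without experiment 1 both counts fell, and without experiment 2 only that of all genes did. Pmvk, Sqle, Ebp, Scap and Stard4 kept their call in every alternative, whereas Hmgcs1, Mvd, Insig1 and Npc2 lost it in 11 to 16 of 24 fits without 1 array. The cause was not tested. In single conditions, the count of 1 with shFOXA2 and GW4064 became 12 with the replicate block, 3 with quantile normalization, 4 with a minimum mean level of 4 and 0 in the fit of only those groups, with 1 to 4 when 1 array or experiment was left out. With shFOXA2 and DMSO the 1 became 11 with the block, and stayed at 1 in every fit with an array or experiment left out. With shlacZ and GW4064 the 2 became 11 with the block, 1 with median centring, 1 with trend and robust options and 1 in the fit of only those groups, with 0 to 2 when left out. With shlacZ and DMSO the 1 became 12 with the block, 2 with quantile normalization, 2 with a minimum mean level of 4 and 2 in the fit of only those groups, with 1 to 2 when left out. For GW4064, for the hairpin and for the interactions the count was 0 under every alternative run. Signs turned only for differences that were not called: Dhcr7 was at -0.013 with median centring and -0.10 to 0.13 with arrays or experiments left out, Npc1 at -0.057 to 0.059, Npc1l1 at -0.11 to 0.0078, and hormone by drug of Pmvk at -0.24 to 0.030. Median centring moved the median gene difference by -0.02. The 23 members called between experiments moved by less than 1.5 times in 5 of 5 alternatives.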
